A study of Mus musculus with 2 samples.

Results

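The integrated stress response genes described here are 30 genes, listed by symbol, among the 22088 genes with a single symbol on the array. They were found by matching the trimmed gene symbol of the deposited table, and where a gene had several probe sets, the one with the highest mean signal over both arrays stood for it. All 30 were present, 28 of them with 1 probe set and 2 of them, Phgdh and Ppp1r15b, with 2. This choice of probe set did not use the difference between the arrays. The genes and the further lists below were chosen with earlier results of these data known, so their counts beside those of all genes are descriptions.

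The data were 2 Affymetrix Mouse Gene 1.0 ST arrays of polysome-associated RNA, 1 from wild-type and 1 from Oasl1-/- bone marrow-derived macrophages (BMDM), both of strain C57BL/6J. Both cultures had been differentiated for 7 days with L929 culture supernatant and had been given 10 µg/ml of poly(I:C), a double-stranded RNA made by synthesis, for 12 h. The RNA came from fractions 9 to 11 of 16 fractions of a sucrose gradient. The labels used here do not state how many mice stood behind a culture or which part of Oasl1 was deleted, and neither untreated cells nor total RNA were analysed here. With a single array for each genotype the differences carry no replicate error, and none was tested.

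Values are log2 signals made by RMA, and a difference is always Oasl1-/- minus wild-type on that scale. A gene counted as past the floor when the higher of its signals was at least 7. For comparison, the central 95% of 5222 probe sets in introns, which serve as background controls, ended at 7.13 on the wild-type and 7.34 on the Oasl1-/- array. The floor left 7835 genes, whose differences had a median of -0.09, an SD of 0.39 and a central 90% from -0.63 to 0.60. Oasl1, the targeted gene, had a signal of 10.70 in wild-type and 9.14 in Oasl1-/-. All 8 macrophage markers were past the floor on both arrays, and none of 24 markers of T cells, B cells, neutrophils, dendritic cells, fibroblasts and erythroid cells passed it on either. In bulk RNA of this kind, fewer cells with an mRNA and less of that mRNA per cell cannot be told apart, and neither can the amount of an mRNA and its loading with ribosomes.

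The integrated stress response turns different stresses into 1 event, phosphorylation of the translation initiation factor eIF2. Each of its kinases reads another stress, and the phosphorylated factor slows the start of translation in general. A set of mRNAs with short upstream open reading frames (upstream ORFs) escapes this and gains ribosomes instead, first among them that of the transcription factor ATF4. ATF4 then raises genes of amino acid synthesis and transport, while PPP1R15A and PPP1R15B direct a phosphatase to eIF2 and end the response. In macrophages, double-stranded RNA such as poly(I:C) is a known trigger through the kinase PKR.

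Of the 30 genes, 15 were past the floor on both arrays, 3 on only 1 array and 12 on neither. The 3 genes past it on 1 array, Phgdh, Shmt2 and Sesn2, were taken in through their brighter signal, so the counts below describe the 18 genes and support nothing about the 30. Among the 18 past the floor, 9 were higher and 9 lower in the Oasl1-/- array, against 39.1% higher and 60.6% lower over all 7835 genes. That split became 12 higher and 6 lower after centring on the median gene, removing a loess trend or quantile normalization. At a difference of at least 1.5-fold, 2 genes were higher, Asns and Phgdh, and 0 were lower, where all genes gave 5.27% higher and 6.28% lower. At 2-fold none of the 18 was called in either direction, against 1.57% and 0.651% of all genes. After centring, the shares over all genes at 1.5-fold were 7.30% higher and 3.94% lower. The median over the 18 was 0.05 and their differences ran from -0.55 to 0.82 with an SD of 0.38, close to the SD over all genes. Only Asns and Phgdh lay outside the central 90% of all genes, Phgdh just past its upper end of 0.597. Counted from the floor, the Phgdh difference of 0.581 (1.496-fold) was inside that range and short of 1.5-fold.

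**Figure D1:**
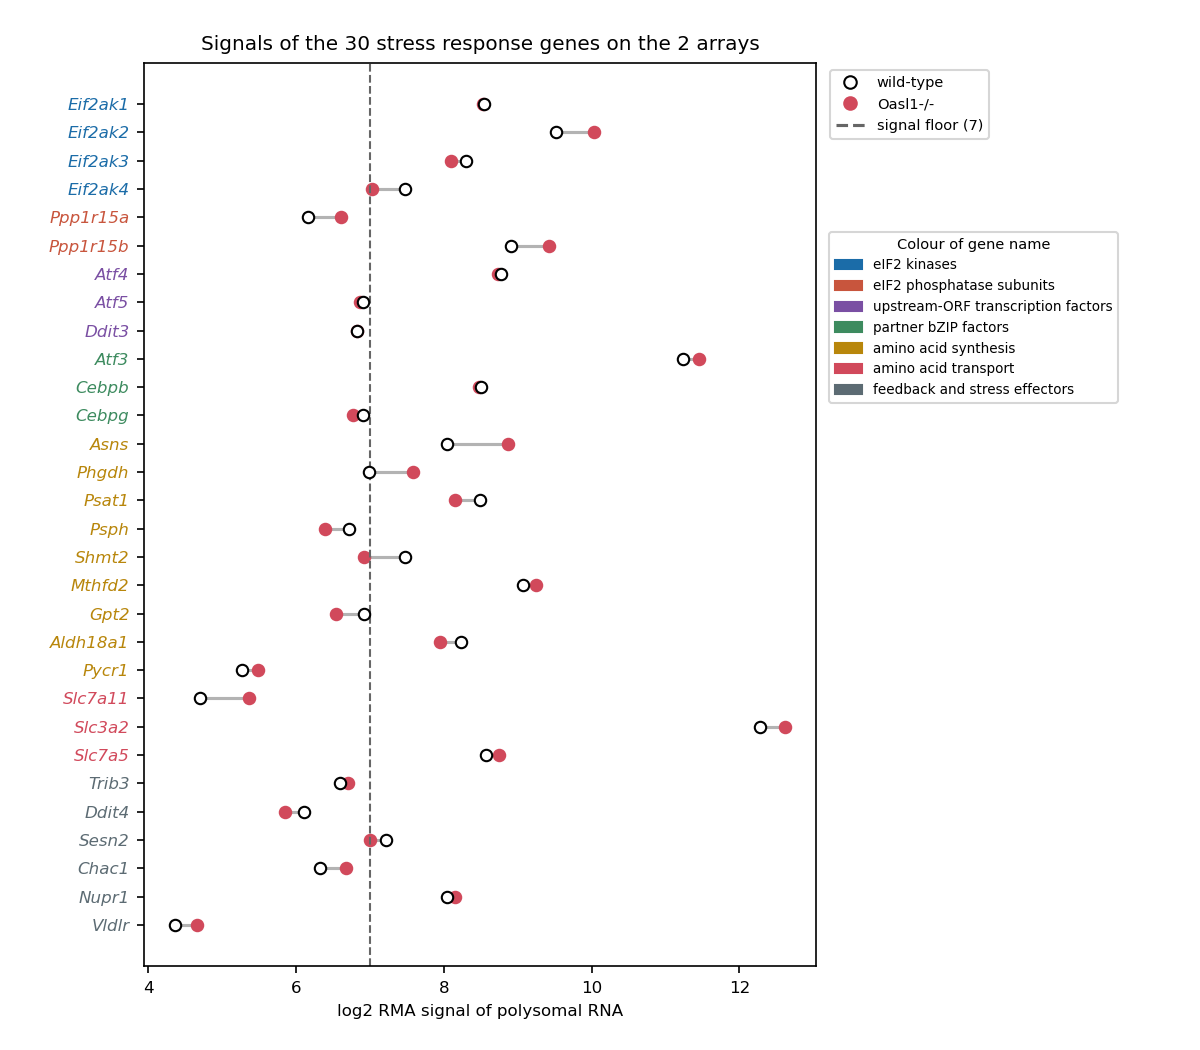
The horizontal axis is the log2 RMA signal of polysomal RNA and each row is 1 of the 30 genes, with its name coloured by role. Open circles are the wild-type array, filled circles the Oasl1-/- array (1 array each, no error bar), and the dashed line is the floor of 7. The circles of Asns lie farthest apart among the genes past the floor, at 8.05 and 8.86, while those of Ddit3 coincide at 6.83.

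All 4 eIF2 kinase genes were past the floor, and they did not move as a group. Eif2ak2, which encodes PKR, the kinase activated by double-stranded RNA and itself induced by interferon, had a signal of 9.52 in wild-type and 10.03 in Oasl1-/-. It was the only kinase gene that was higher in the Oasl1-/- array beyond small amounts, by 0.51 (1.42-fold), above 93.1% of the genes past the floor. Eif2ak4, which encodes GCN2, the sensor of uncharged tRNA, stood at 7.47 and 7.02. It was lower by 1.37-fold (-0.45), although its Oasl1-/- signal lay below the intron control limit of that array. Eif2ak3, which encodes PERK, the sensor of protein folding in the endoplasmic reticulum, had 8.30 and 8.09, a difference of -0.21. Eif2ak1, which encodes HRI, the sensor of haem and mitochondrial stress, had 8.54 and 8.52. Its difference of -0.02 turned positive after centring. The probe set of Eif2ak2 has 34 probes and lies at chr17:79251904-79281912 on the minus strand, and that of Eif2ak4 has 43 probes at chr2:118214353-118300969 on the plus strand (build NCBIM37).

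Eif2ak2 stood with other effectors of double-stranded RNA sensing, of which 8 were listed and 8 were past the floor. They had a median of 0.47, and 7 were higher and 1 lower, against 39.1% higher and 60.6% lower over all genes. Ifih1, which encodes the cytosolic sensor MDA5, had signals of 9.82 and 10.65 (0.83), Oas2, an oligoadenylate synthetase, 8.87 and 9.64 (0.78), and Ddx58, which encodes the sensor RIG-I, 11.04 and 11.62 (0.59). These 3 were at least 1.5-fold higher and none was 1.5-fold lower, against 5.27% and 6.28% of all genes. With a pseudocount of 32 Ddx58 fell just short of 1.5-fold, and after centring Zbp1, a sensor of nucleic acids named after its value was seen, passed it as well. The Eif2ak2 promoter is shown because this kinase gene differed from the other kinase genes. Its capitals mark the letters GAAANNGAA, part of an interferon-stimulated response element (ISRE), which occur there as overlapping matches from base 19 and from base 25 after the RefSeq start site. These letters were searched on both strands, from 250 bases before to 50 bases after each start, and 8.56% of 32851 promoters in the RefSeq table held them. Among the 28 genes with a promoter there, they were found for Eif2ak2, Ppp1r15a and 1 of the promoters of Vldlr. The sequence is read 5′ to 3′ on the minus strand of build GRCm38.p6, at chr17:78882523-78882822.
Eif2ak2: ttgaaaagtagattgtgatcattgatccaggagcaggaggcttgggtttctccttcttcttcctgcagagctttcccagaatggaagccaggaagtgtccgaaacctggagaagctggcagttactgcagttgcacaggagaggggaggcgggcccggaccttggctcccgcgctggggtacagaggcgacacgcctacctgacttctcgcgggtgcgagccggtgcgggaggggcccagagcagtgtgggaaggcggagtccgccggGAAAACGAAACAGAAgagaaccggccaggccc

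The genes for the phosphatase subunits were both brighter on the Oasl1-/- array, but only 1 of them was past the floor. Ppp1r15b, which encodes CReP, the constitutive eIF2 phosphatase subunit, had 8.90 in wild-type and 9.42 in Oasl1-/-. It was higher by 0.51 (1.43-fold), above 93.2% of the genes past the floor, and passed 1.5-fold after centring, at 0.60. Its probe set of 34 probes lies at chr1:135027960-135036360 on the plus strand (NCBIM37). A second probe set that the table assigns to Ppp1r15b lies on the opposite strand at chr1:135027757-135028359, across the start of the first, and was below the floor at 6.23 and 6.77. Ppp1r15a, which encodes GADD34, the stress-induced subunit that closes the feedback loop, was below the floor on both arrays at 6.16 and 6.61, so no fold is given for it.

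The group taken here as upstream-ORF mRNAs held 5 genes, Atf4, Atf5, Ddit3, Ppp1r15a and Ppp1r15b. Only Atf4 and Ppp1r15b of this group were past the floor. Atf4, the central transcription factor of the response, had 8.78 in wild-type and 8.73 in Oasl1-/-. Its difference of -0.05 turned to 0.04 after centring, and 54.8% of the genes past the floor had a lower difference. Its 32 probes lie at chr15:80085614-80087971 on the plus strand (NCBIM37). Atf5, a related factor that protects against proteotoxic stress, was just below the floor on both arrays at 6.91 and 6.87. Ddit3, which encodes the death-promoting factor CHOP, was below the floor with the same deposited signal, 6.83, on both arrays. Such identical pairs occurred in 1442 of the 35556 probe sets (4.06%), among them 25 genes past the floor, so the value 0 of Ddit3 is no precise measure of equality. The genes of this group past the floor thus gave 1 value near 0 and 1 higher value. Both were positive after centring, loess or quantile normalization.

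Other mRNAs with regulatory upstream ORFs were mostly lower. Of 6 listed, all were past the floor, with a median of -0.37, 5 lower and 1 higher, against 60.6% and 39.1% of all genes. Cebpa, which encodes the myeloid factor C/EBP alpha, had 7.63 and 6.79 (-0.84) and Ptp4a1, a phosphatase gene, 9.58 and 8.89 (-0.69). These 2 were at least 1.5-fold lower and 0 were 1.5-fold higher, against 6.28% and 5.27% of all genes. The Oasl1-/- signal of Cebpa was below the floor, and down to the floor its difference was at least 0.63. Slc35a4, a solute carrier gene, had 9.90 and 9.52 (-0.38).

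The factors that pair with ATF4 or CHOP were close between the arrays. Atf3, an early stress and inflammation repressor, had 11.23 and 11.46, a difference of 0.23. Cebpb, the C/EBP beta gene with roles in macrophage activation, had 8.50 and 8.47, a difference of -0.04 that turned positive after centring. Cebpg, which encodes a dimerisation partner of ATF4, was below the floor at 6.90 and 6.77.

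Genes of amino acid synthesis held both the highest and the lowest of the 18 differences. Asns, asparagine synthetase and a classical ATF4 target, had 8.05 in wild-type and 8.86 in Oasl1-/-. It was higher by 0.82 (1.76-fold), above 97.4% of the genes past the floor, and its value lay between 0.75 and 0.92 under the alternatives tried. Its 35 probes lie at chr6:7625169-7643199 on the minus strand (NCBIM37). Of the 9 genes in the group 6 were past the floor, with 3 higher and 3 lower, against 39.1% and 60.6% of all genes. Asns and Phgdh, 2 of the 6, were at least 1.5-fold higher and 0 were 1.5-fold lower, against 5.27% and 6.28% of all genes. Phgdh passed the floor only on the Oasl1-/- array, and counted from the floor it was 1.496-fold higher, short of 1.5-fold. Shmt2, also among the 6, passed the floor only on the wild-type array. The group median was -0.06 in the deposited signals and 0.03 after centring.

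The steps from glycolysis to serine went in different directions. Phgdh, which catalyses the first step, had 6.98 in wild-type and 7.58 in Oasl1-/-, a difference of 0.60 (1.52-fold). The wild-type signal was below the floor, and from the floor itself the difference was at least 0.58, just short of 1.5-fold. This probe set has only 8 probes, at chr3:98117093-98143892 on the minus strand. A second probe set assigned to Phgdh, with 27 probes at chr7:144002592-144003583 on the plus strand, had 7.02 and 7.43, a difference of 0.41. The mean over both sets was below 1.5-fold. Psat1, the aminotransferase of the second step, had 8.48 and 8.15 and was lower by 0.33 on the log2 scale. Psph, the phosphatase of the last step, was below the floor on both arrays at 6.71 and 6.39.

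Mitochondrial enzymes that carry serine carbon onward did not move together either. Shmt2, which converts serine to glycine in mitochondria, had 7.47 in wild-type and 6.92 in Oasl1-/-, the lowest difference of the 18 at -0.55 (1.46-fold lower). Its Oasl1-/- signal was below the floor, and down to the floor the difference was 0.47, or at least 1.39-fold. Its 29 probes lie at chr10:126954195-126959491 on the minus strand. Mthfd2, the next mitochondrial folate enzyme, had 9.08 and 9.25, a difference of 0.17. Aldh18a1, which starts proline synthesis from glutamate, had 8.23 and 7.95 (-0.28). Gpt2, a mitochondrial alanine aminotransferase, and Pycr1, which completes proline, were below the floor, at 6.92 and 6.54 for Gpt2 and at 5.27 and 5.48 for Pycr1.

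The other genes of serine, one-carbon and proline metabolism that were past the floor were all lower. Of 14 listed 7 were past it, with a median of -0.27, while 60.6% of all genes were lower, with a median of -0.09. These 7 stayed lower after centring, loess, quantile normalization and with a pseudocount. Mthfd1, the cytosolic folate enzyme, had 7.88 and 6.69, a difference of -1.19, and down to the floor it was lower by at least 0.88. It was the 1 gene of the list at least 1.5-fold lower, against 6.28% of all genes. Mthfd1l, a mitochondrial folate ligase, had 8.24 and 7.79 (-0.45), and Pycrl, a proline synthesis enzyme, 7.72 and 7.40 (-0.33).

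**Figure D2:**
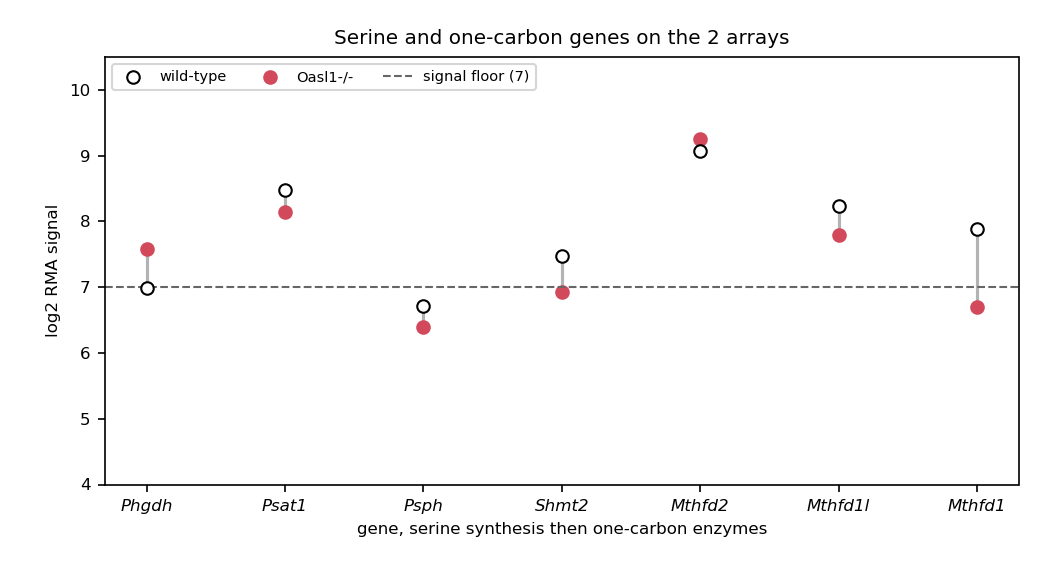
The vertical axis is the log2 RMA signal, and the genes stand in the order of the serine steps followed by one-carbon enzymes. Open circles are the wild-type array, filled circles the Oasl1-/- array (1 array each, no error bar), and the dashed line is the floor of 7. Phgdh and Mthfd2 are higher in the Oasl1-/- array, and the circles of Mthfd1 are farthest apart, at 7.88 and 6.69.

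The promoters of all 28 genes in the table were searched for the C/EBP-ATF response element (CARE), the element through which ATF4 and its partners act. The letters TGATGNAA, on either strand, were found in 3.97% of the 32851 promoters and for 8 of the 28 genes with a promoter in the table, namely Asns, Atf3, Chac1, Nupr1, Pycr1, Slc7a11, Trib3 and Vldlr. Counted by promoter, this was 8 of the 32 promoters of the 28 genes. The genes were listed as ATF4 targets among others, so a share above that of all promoters is built into the list. Of the 8 genes with the letters 3 were past the floor, Asns, Atf3 and Nupr1, and all 3 were higher, by 0.82, 0.23 and 0.11. Of the 20 genes without these letters 13 were past the floor, 4 higher and 9 lower, with a median of -0.05 in the deposited signals. Their differences ran from -0.55 for Shmt2 to 0.60 for Phgdh, a range that holds the values of Atf3 and Nupr1. The shares over all 7835 genes were 39.1% higher and 60.6% lower, with a median of -0.09. After centring, loess or quantile normalization the 13 genes split into 7 higher and 6 lower, with a median of 0.04, 0.03 and 0.01. The 3 genes with the letters stayed higher. With 3 genes on 1 side this is a description. The cyclic AMP element TGACGTCA was found for Ppp1r15a alone among the 28, and in 1.79% of all promoters. Ppp1r15b and Slc7a5 had no entry in the table.

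The promoters of the 3 genes with CARE letters past the floor are shown, beside that of Shmt2, the gene with the lowest difference, in whose window none of the 3 motifs was found. Shmt2 was picked for its value, and Phgdh, higher by 0.60, lacks the CARE letters as well. A link between these letters and direction was not tested. Capitals mark the CARE letters, and TTGCATCA is the element read on the other strand. They begin 23 bases before the start site in Asns, and 110 bases before it in both Atf3 and Nupr1. All are RefSeq promoters of build GRCm38.p6 read 5′ to 3′ on the minus strand, at chr6:7693160-7693459 for Asns, chr1:191183284-191183583 for Atf3, chr7:126625421-126625720 for Nupr1 and chr10:127522395-127522694 for Shmt2.
Asns: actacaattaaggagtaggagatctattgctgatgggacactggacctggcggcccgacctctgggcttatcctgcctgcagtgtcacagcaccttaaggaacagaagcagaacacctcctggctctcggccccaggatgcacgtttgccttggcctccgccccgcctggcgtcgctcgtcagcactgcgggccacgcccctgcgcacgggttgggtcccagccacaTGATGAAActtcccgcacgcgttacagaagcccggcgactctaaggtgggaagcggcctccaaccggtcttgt
Atf3: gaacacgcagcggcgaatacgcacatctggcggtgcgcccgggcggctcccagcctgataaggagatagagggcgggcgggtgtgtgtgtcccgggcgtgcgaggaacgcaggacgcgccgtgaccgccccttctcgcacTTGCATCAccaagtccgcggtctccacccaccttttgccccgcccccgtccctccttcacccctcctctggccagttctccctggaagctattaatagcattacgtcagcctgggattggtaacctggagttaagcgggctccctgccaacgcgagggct
Nupr1: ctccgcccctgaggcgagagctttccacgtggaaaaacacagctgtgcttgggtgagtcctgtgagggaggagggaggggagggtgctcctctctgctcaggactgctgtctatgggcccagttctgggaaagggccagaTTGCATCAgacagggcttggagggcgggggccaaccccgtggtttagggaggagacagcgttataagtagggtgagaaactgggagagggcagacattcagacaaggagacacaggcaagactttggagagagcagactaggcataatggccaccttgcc
Shmt2: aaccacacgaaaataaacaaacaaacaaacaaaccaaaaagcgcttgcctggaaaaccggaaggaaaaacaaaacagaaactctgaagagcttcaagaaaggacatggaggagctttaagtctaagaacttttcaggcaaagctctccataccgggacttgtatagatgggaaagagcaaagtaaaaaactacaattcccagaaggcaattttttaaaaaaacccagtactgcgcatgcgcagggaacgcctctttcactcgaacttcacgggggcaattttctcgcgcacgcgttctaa

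The amino acid transporter genes past the floor were both higher, by modest amounts. Slc3a2, the heavy chain shared by several amino acid exchangers, had 12.28 in wild-type and 12.62 in Oasl1-/- (0.34, 1.27-fold), above 87.0% of the genes past the floor. Slc7a5, the light chain that imports large neutral amino acids with it, had 8.56 and 8.75 (0.18). Slc7a11, the light chain that imports cystine, was far below the floor at 4.70 and 5.36, so its signals carry no usable fold.

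Of the 6 feedback and effector genes only Sesn2 and Nupr1 were past the floor. Nupr1, a stress-induced chromatin protein, had 8.05 and 8.16, a difference of 0.11. Sesn2, an inhibitor of mTORC1 under amino acid shortage, had 7.22 and 7.00 (-0.22), with the Oasl1-/- signal marginally under the floor. The other genes were below it on both arrays. Trib3, the pseudokinase that restrains ATF4, had 6.60 and 6.70. Ddit4, which inhibits mTORC1 and is also known as REDD1, had 6.11 and 5.85. Chac1, which degrades glutathione, had 6.33 and 6.67, and Vldlr, a lipoprotein receptor, 4.35 and 4.65.

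**Figure D3:**
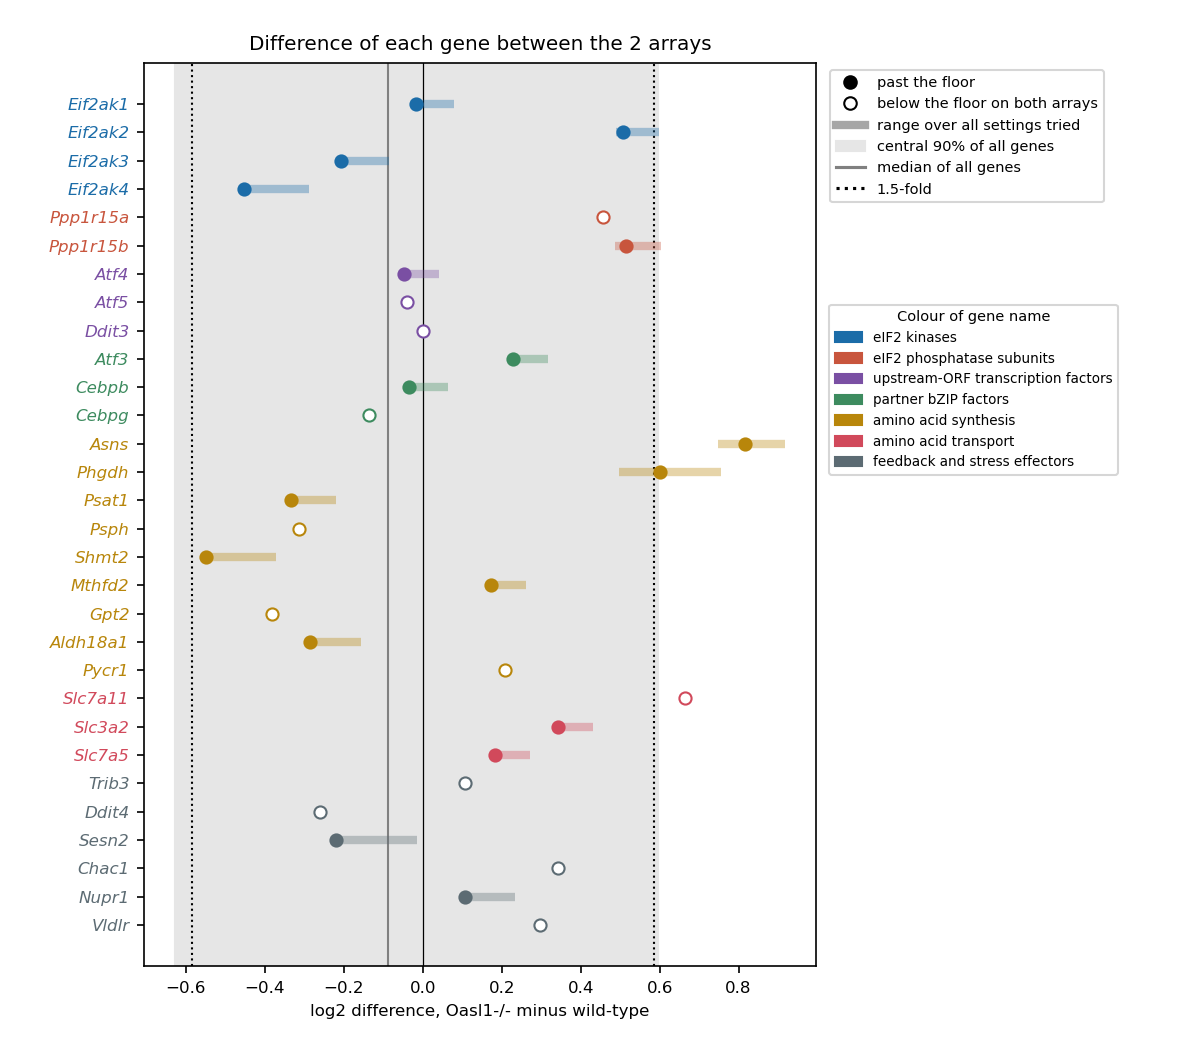
The horizontal axis is the log2 difference, Oasl1-/- minus wild-type, for each of the 30 genes, coloured by role. Filled circles are genes past the floor with a bar for the range over all settings tried, open circles are genes below the floor on both arrays, the grey band is the central 90% of the 7835 genes and dotted lines are at 1.5-fold. Asns at 0.82 and Phgdh at 0.60, the latter at the edge of the band, are the only filled circles outside it.

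Genes of eIF2, the factor that the kinases act on, and of its exchange factor were mostly slightly lower. Of 9 subunit genes of eIF2 and of its exchange factor eIF2B, 8 were past the floor, with a median of -0.22. All 8 were lower in the deposited signals, against 60.6% of all genes, and 7 after centring. The smallest of these differences was -0.0007, which is practically none. Eif2b3 had 7.91 and 7.30 (-0.61) and was the 1 gene at least 1.5-fold lower, which it was not after centring, Eif2b1 had 9.06 and 8.51 (-0.55), and Eif2s1, the subunit that carries the phosphorylated serine, 11.04 and 10.61 (-0.43). None was 1.5-fold higher, while of all genes 5.27% were and 6.28% were 1.5-fold lower.

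Regulators of the kinases and the phosphatase catalytic subunits had a median of -0.13, with 10 of 10 listed past the floor. Of these, 3 were higher and 7 lower, against 39.1% and 60.6% of all genes, and none reached 1.5-fold. Ppp1cc, a catalytic subunit, had 11.12 and 10.59 (-0.54). Prkra, which encodes the PKR activator PACT, had 7.07 and 6.59. Both signals were under the intron control limits, and down to the floor its difference was only 0.07. Dnajc3, which encodes the kinase inhibitor p58IPK, was higher, at 10.19 and 10.60 (0.42).

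Further targets of ATF4 and CHOP were measured in a list of 34 genes, 23 of them past the floor. Their median was -0.17, with 7 higher and 16 lower, and 8 higher and 15 lower after centring, against 60.6% lower over all genes. Iars, isoleucyl-tRNA synthetase, had 9.59 and 8.99 (-0.60), the only call at 1.5-fold, which centring removed. None was 1.5-fold higher, while of all genes 5.27% were and 6.28% were 1.5-fold lower. Gadd45a, a growth arrest gene, had 7.70 and 7.17 (-0.53), while Fam129a, a regulator of translation under stress, had 9.05 and 9.50 (0.45). The 11 aminoacyl-tRNA synthetase genes of the list had a median of -0.22, with 3 higher and 8 lower.

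The neighbouring arm of the endoplasmic reticulum response lay on the other side. Of 18 genes of the XBP1 and ATF6 branch all were past the floor, with a median of 0.22. In the deposited signals 16 were higher and 2 lower, against 39.1% and 60.6% of all genes. The split of the 18 was the same under each of the rescalings by centring, loess and quantile normalization. Syvn1, a ubiquitin ligase of protein disposal, had 8.52 and 9.23 (0.71), and was alone in passing 1.5-fold before any rescaling. Dnajb11, a chaperone, had 10.58 and 11.13 (0.54), and Creld2 9.70 and 10.17 (0.47). None was 1.5-fold lower, while of all genes 5.27% were 1.5-fold higher and 6.28% lower. Eif2ak3, the kinase of the same organelle, stood at -0.21.

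Targets of NRF2, an oxidative stress factor that also acts on Slc7a11, had a median of -0.14 over the 9 of 11 past the floor. All 9 were lower in the deposited signals, against 60.6% of all genes, and 6 after centring. The glutathione synthesis genes Gclc and Gclm were at least 1.5-fold lower in the deposited signals, against 6.28% of all genes. Only Gclc was after centring, loess, quantile normalization or with a pseudocount of 32. Gclc had 7.97 and 6.92 (-1.05), with the Oasl1-/- signal below the floor and a difference of at least 0.97 down to it. Gclm had 7.64 and 7.02 (-0.62), and Gsr, glutathione reductase, 9.10 and 8.58 (-0.51).

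**Figure D4:**
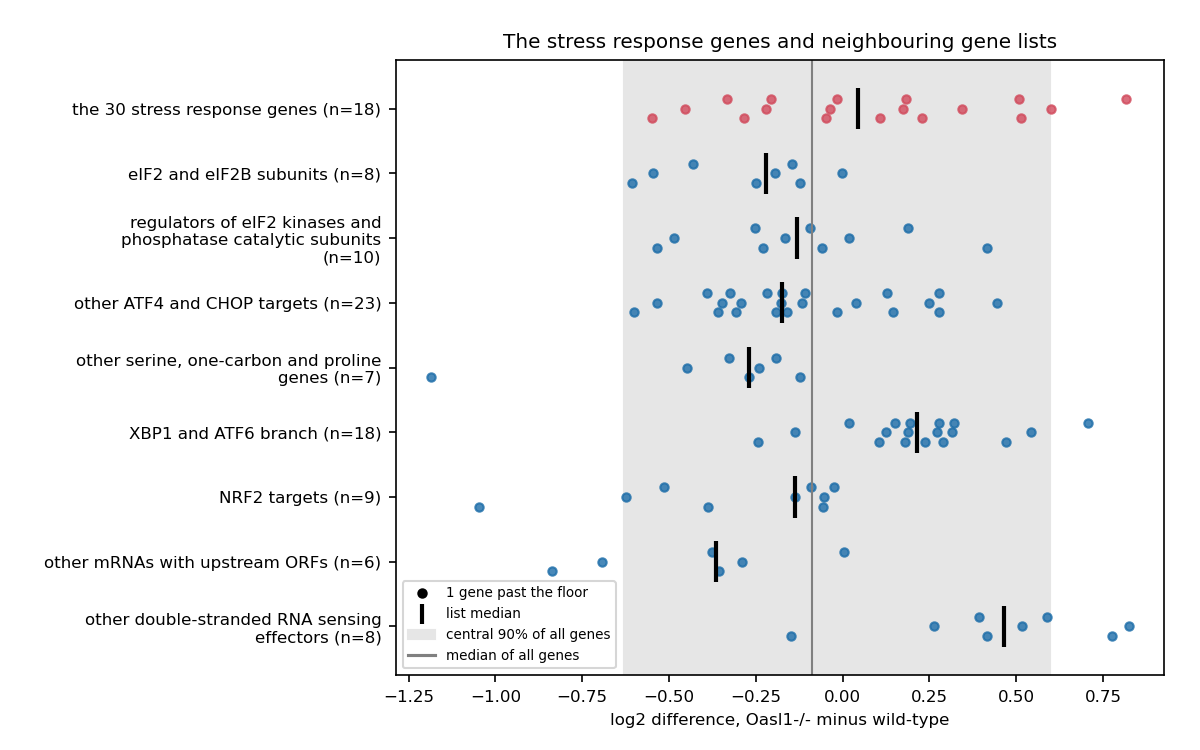
The horizontal axis is the log2 difference, Oasl1-/- minus wild-type. Each point is 1 gene past the floor, each black bar the median of its list, the grey band the central 90% of all 7835 genes and the grey line their median of -0.09. The stress response genes spread from -0.55 to 0.82 around a median of 0.05, with the double-stranded RNA sensing effectors highest at a median of 0.47.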

How the data were processed

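Polysomal RNA of 1 wild-type and 1 Oasl1-/- culture was hybridised to Affymetrix Mouse Gene 1.0 ST arrays. Per the submitters' processing notes and design text, the authors used GCOS, RMA, the R affy package 2.9.2 and Expression Console 1.1. They deposited log2 signals for 35556 probe sets, a log2 ratio and an unsigned fold. The deposited log2 ratio equalled Oasl1-/- minus wild-type in all rows, and the log2 signals of the deposited value table were identical in all rows. RMA is meant to bring both arrays to a shared distribution, which largely removes a shift common to all mRNAs. An offset remained, with the median gene past the floor at -0.09 in the deposited signals and -0.01 after quantile normalization. It was not the same at all signals, for with no floor the median over 22088 genes was 0.03. Removing the loess trend took the dim gene Shmt2 from -0.55 to -0.37 and the bright gene Atf3 from 0.23 to 0.22. Centring shifts all genes alike and leaves such a trend in place.

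From these, Python 3.11.15 with pandas 2.3.3 and statsmodels 0.14.6 (lowess fraction 0.3) computed differences per gene, counts at 1.5-fold and 2-fold and list medians, with no test. The procedure was checked on simulated data. The number of arrays limits the precision. All 30 genes are named, and of each further list the 3 genes past the floor with the largest absolute difference, besides Oasl1. The genes and lists were chosen with earlier results of these data known. Promoters came from RefSeq, build GRCm38.p6. The cross-hybridisation column read false for all probe sets used for the 30 genes. Alternatives were scaling, pseudocount, floor, probe set choice and source table.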

Additional observations from a re-analysis of the deposited data

How the results depend on the processing

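Of the 18 genes past the floor, 15 kept 1 sign under all of the 11 alternatives in which they could be measured. Eif2ak1, Atf4 and Cebpb, all within 0.08 of 0, took both signs. The other floors and the intron control filter only select genes, and the second deposited table holds the same signals. None of these could change a single-gene value. The mean over probe sets could change only Phgdh and Ppp1r15b. Every gene could change only under centring, loess, quantile normalization and the pseudocount. No single-gene value moved by more than 0.43, the 95% quantile of the gap between probe sets of 1 gene in 603 genes. That limit is wide, as the median gap was 0.05 and centring only took the median of -0.09 off every gene. Staying within it therefore says little about how stable a value is. The count of genes higher by 1.5-fold or more, 2 before rescaling, was 4 after centring, where Eif2ak2 and Ppp1r15b joined Asns and Phgdh. It was 3 with no floor and 1, Asns, with a pseudocount of 32, with a floor of 8, with the mean over all probe sets and, in an alternative added after the data were seen, with both signals above the intron controls. With no floor 30 genes counted, 15 higher and 14 lower, and with a floor of 6 there were 14 lower. The median over the genes ranged from -0.02 with a floor of 6 to 0.15 after loess. The median of the kinases was -0.11 in the deposited signals and -0.003 after loess. A floor on the mean signal, also added later, and the second deposited table gave the same counts as the main setting. No paired analysis was possible because there was 1 array per genotype, and no replicate could be left out.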
